A study of Mus musculus with 8 samples.

Results

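Cxcl9, Cxcl10 and Cxcr3 were taken by name from the 32285 genes of the count table, which made 3 members. CXCR3 is a chemokine receptor of activated and memory T cells, NK cells and other lymphocytes, and it guides them along gradients of CXCL9 and CXCL10. Both chemokines are made on induction by interferon gamma, and CXCL10 is also induced by type I interferon and by NF-κB. In type 1 diabetes CXCL10 is known from inflamed islets, where it is linked to the recruitment of autoreactive T cells.

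The samples were CD45+ immune cells sorted from grafts of NIT-1, a beta cell line of NOD origin that was either unmodified (WT) or mutant for Rnls, the gene of the flavoprotein renalase (Rnlsmut). The WT and the Rnlsmut graft were placed on opposite flanks of the same NOD.scid mice, which lack T and B cells of their own but keep innate cells, and splenocytes of recently diabetic NOD mice were given intravenously 4 days later. Grafts were taken 10 or 17 days after that transfer, giving 4 grafts in each of 4 groups (WT day 10, Rnlsmut day 10, WT day 17 and Rnlsmut day 17), separated by hashtag antibodies within 1 library per group. Library and condition therefore cannot be told apart, host innate cells and transferred cells are not distinguished, and the age of the mice and whether the mutant line is 1 clone are not given in the sources used here. Every graft of every group had received the transferred splenocytes, so no graft without autoimmune attack was measured.

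The table held 22441 cells in 12 annotated cell types and 29 clusters, with 7617 cells in WT day 10, 6652 in Rnlsmut day 10, 2690 in WT day 17 and 5482 in Rnlsmut day 17. Counts of unique molecular identifiers (UMIs, 1 per captured transcript) summed to between 1742746 and 9729233 per graft, and the median per cell was 3382, 3454, 5902 and 3083 in the groups in that order. The WT day 17 cells were thus the deepest, and 42 of 22399 barcodes occurred in 2 libraries. The annotation was checked against marker genes. C1qa stood at 2072 counts per 1000000 UMIs (CPM) in macrophages, Foxp3 at 303 CPM in regulatory T cells and S100a8 at 21809.9 CPM in granulocytes. The beta cell genes Ins1 and Iapp were at 0 in every type. Ins2 stood at 2.51 CPM in the cells annotated Stem-Progenitor and at 0.24 CPM or less elsewhere, and Chga at 0.105 CPM or less. The cells annotated Stem-Progenitor went against their label, since their larger cluster was led by the histone gene Hist1h1b and by Pclaf together with Trbc2, Cd3e and Ifng, and the smaller by granzyme genes. They are called below the cells labelled Stem-Progenitor.

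Cxcl9 gave 69206 UMIs in 5204 cells (23.2% of all cells), Cxcl10 35560 UMIs in 4684 cells (20.9%) and Cxcr3 2738 UMIs in 2132 cells (9.50%). The chemokines were concentrated, with up to 291 Cxcl9 and 120 Cxcl10 UMIs in 1 cell, whereas no cell held more than 8 Cxcr3 UMIs. Cxcl9 (ENSMUSG00000029417.9) lies on chromosome 5 at chr5:92321347-92328079 and Cxcl10 (ENSMUSG00000034855.13) at chr5:92346638-92348889, both on the minus strand with 4 exons and 18558 bases apart, in GENCODE vM21 coordinates of the GRCm38 (mm10) build. Cxcl10 lies within the span of Art3, a gene on the opposite strand that gave 125 UMIs in all. Cxcr3 (ENSMUSG00000050232.6) is on the X chromosome at chrX:101731535-101734269, minus strand, with 2 exons.

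The promoters of the 2 chemokines are shown because their transcripts parted company between cell types, as described below. Each line holds the 250 bases before the RefSeq start of the gene in GRCm38.p6, read 5′ to 3′ on the minus strand, chr5:92328080-92328329 for Cxcl9 and chr5:92348890-92349139 for Cxcl10, and capitals mark a match to the interferon-response type motif, GAAA and again GAAA after any 2 bases.
Cxcl9: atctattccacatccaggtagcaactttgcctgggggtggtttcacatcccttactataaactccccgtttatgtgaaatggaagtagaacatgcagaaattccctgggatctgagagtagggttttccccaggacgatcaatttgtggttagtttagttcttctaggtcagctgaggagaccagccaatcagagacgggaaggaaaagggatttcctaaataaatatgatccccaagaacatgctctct
Cxcl10: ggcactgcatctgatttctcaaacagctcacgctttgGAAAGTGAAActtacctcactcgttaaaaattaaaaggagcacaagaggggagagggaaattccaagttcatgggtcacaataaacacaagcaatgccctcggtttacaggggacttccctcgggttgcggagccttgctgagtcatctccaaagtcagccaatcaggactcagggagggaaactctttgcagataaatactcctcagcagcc

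The Cxcl10 window held that motif once, 213 to 204 bases before the start, and the Cxcl9 window did not. It occurred on either strand in 2.98% of the 32851 promoters of the same table and the NF-κB type motif (GGGA, any base, TTTCC) in 0.356%. That exact NF-κB type pattern was not found in the windows of Cxcl9, Cxcl10 or Cxcr3, and looser forms of it were not searched. These are matches of letters in a short window and not measured sites, and nothing about any factor follows from a window without a match.

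Only sorted CD45+ cells were sequenced, so beta cells and other cells of the graft could not be seen as sources. Among the CD45+ cells, myeloid cells held most UMIs of both chemokines. Macrophages held 50% of all Cxcl9 UMIs, monocytes 25.6% and dendritic cells 23.2%, and no other type reached 1%. Of the Cxcl10 UMIs, macrophages held 41.7%, monocytes 22.5%, dendritic cells 20.9% and granulocytes 4.12%, and the remainder was spread over lymphoid cells. In CPM, dendritic cells had the highest mean level of Cxcl9 (1455 ± 1182 CPM, SD over 16 grafts), ahead of macrophages (1148 ± 852 CPM, n = 16), monocytes (1148 ± 695 CPM, n = 15 grafts with at least 10 such cells) and granulocytes (917 ± 1085 CPM, n = 12). Neighbours among those 4 did not differ beyond their spread over grafts, and dendritic cells were above macrophages in 10 of 16 grafts. Then came a step: granulocytes were above regulatory T cells in 10 of 11 grafts, and the mean in each remaining type measured was between 2.93 and 17.2 CPM. These orders describe cells that were themselves annotated from their transcripts, so no test was made of them.

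Cxcl10 was ordered differently. Granulocytes, cells led by S100a9, S100a8 and Il1b, had the highest level, 2836 ± 2184 CPM over 12 grafts with a range of 302 to 8781 CPM, and were above dendritic cells in 12 of 12 grafts, by 2.73 ± 3.04 (SD) on the log2 scale. Dendritic cells (690 ± 599 CPM), monocytes (610 ± 334 CPM) and macrophages (487 ± 366 CPM) followed, and their order was not separated beyond the spread over grafts. The granulocyte values rest on 10 to 53 cells per graft, and their mean difference from dendritic cells was within its SD. Granulocytes had a median of 1319 UMIs per cell, against 6281.5 in dendritic cells. The order is one of CPM and need not hold for UMIs per cell. Lymphoid means ran from 58.5 CPM in CD8 T cells and 70.3 CPM in CD4 T cells to 182 CPM in NK cells and 268 CPM in regulatory T cells, far above the Cxcl9 means of the same cells.

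**Figure D1:**
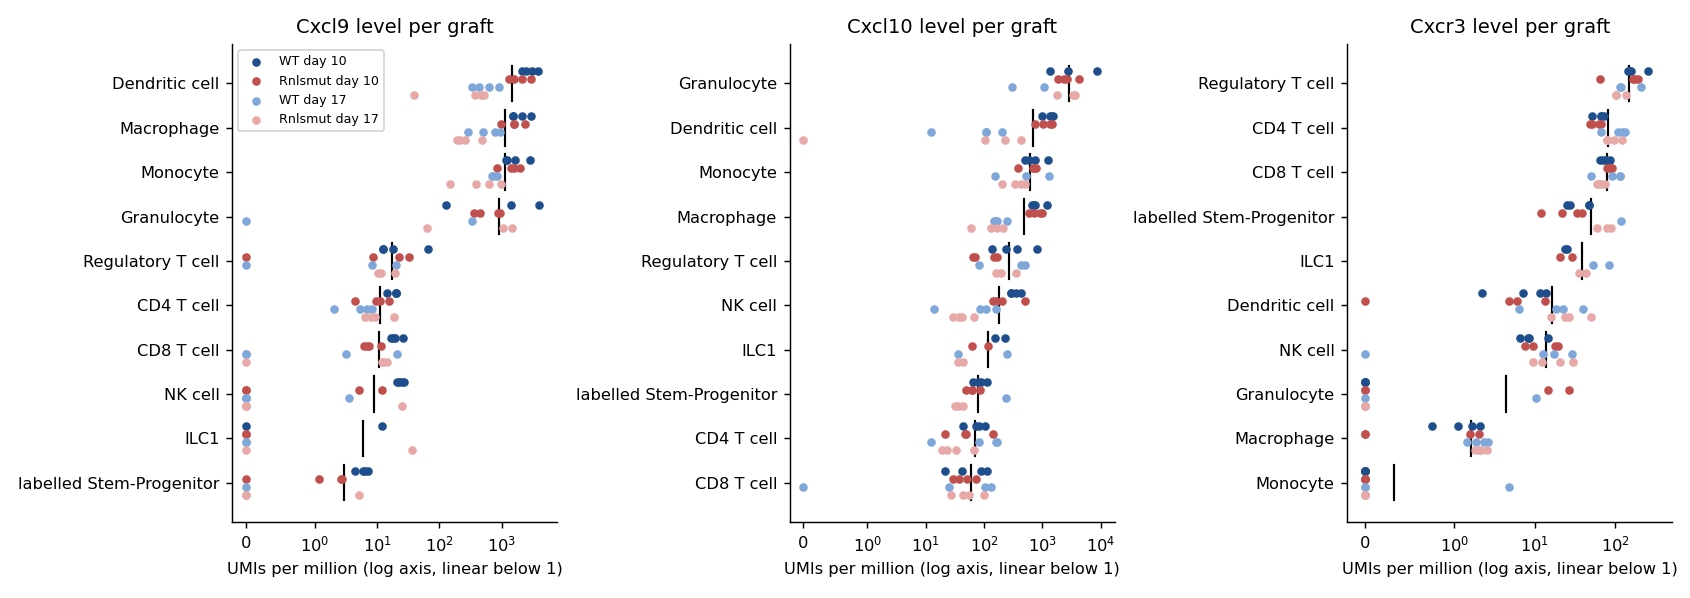
Level of Cxcl9, Cxcl10 and Cxcr3 in each annotated cell type, in CPM on an axis that is logarithmic above 1 and linear below, 1 point per graft with at least 10 cells of the type and a bar at the mean over grafts. Cxcl9 points of the 4 myeloid types lie apart from nearly all lymphoid points, Cxcl10 spans both, and Cxcr3 is highest in regulatory T cells (mean 150 CPM).

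Within the annotated types the chemokines belonged to particular clusters, which is a description because the clusters were made with these genes. The highest Cxcl9 levels were 3680 CPM in dendritic cell cluster 17 (led by Cxcl9, Mgl2 and Il1b), 2537 CPM in macrophage cluster 4 (Cxcl9, Inhba and Il1b) and 1743 CPM in monocyte cluster 1 (Cxcl9, Cybb and Lyz2). Cluster 4 alone held 39.3% of all Cxcl9 UMIs and 28.2% of those of Cxcl10. For Cxcl10 the order was granulocyte cluster 18 (2569 CPM), cluster 17 (2033 CPM) and cluster 4 (935 CPM). Over the 26 clusters with at least 50 cells, the genes whose log2 level ran most nearly with Cxcl9 were Batf2 (Pearson r 0.95), Enah (0.94), Cd40 (0.93), H2-DMb2 (0.93) and Il1b (0.92), out of 11165 genes compared. Those nearest Cxcl10 were Kif1a (0.84), Gm13822 (0.82), 1700019L13Rik (0.82), Gbp5 (0.81) and Mcemp1 (0.81), and Cxcl9 with Cxcl10 gave 0.80. The points share libraries and depth, so these values carry no p.

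Single macrophages often held both chemokines. After thinning each cell to 1000 UMIs, which no cell was too shallow for, 45.3% of 2339 day 10 macrophages had a Cxcl9 UMI, 29.2% a Cxcl10 UMI and 18.7% both, against 13.2% from the product of the shares. Cxcl9 was seen in 64.1% of the macrophages with Cxcl10 and in 37.5% of those without. Day 10 dendritic cells gave 76.9% and 40.6%. In granulocytes Cxcl9 was seen in 16.4% of the cells with Cxcl10 and 13.5% of those without among 242 cells at day 10, and in 18.8% and 4.21% among 127 cells at day 17. At day 17 the macrophage shares were 10.4% for Cxcl9, 5.5% for Cxcl10 and 1.92% for both.

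Both chemokines were lower in macrophages at day 17 than at day 10. For Cxcl9, the WT macrophages of grafts 1 to 4 stood at 1518, 2949, 2155 and 1555 CPM at day 10 and at 936, 774, 283 and 506 CPM at day 17. The Rnlsmut macrophages stood at 1564, 996, 1567 and 2413 CPM at day 10 and at 259, 189.9, 486 and 212 CPM at day 17. Within each genotype every day 10 graft was above every day 17 graft, and the WT day 17 grafts 1 and 2 were the highest of the later day. Over both genotypes Cxcl9 fell by 2.26 ± 0.26 on the log2 scale (SE; edgeR quasi-likelihood test over 9331 genes, Benjamini-Hochberg adjusted p = 2.4e-06).

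For Cxcl10, WT macrophages stood at 669.9, 1183, 709 and 733 CPM at day 10 and at 245, 166, 162 and 148 CPM at day 17. Rnlsmut macrophages stood at 709, 587, 998 and 922 CPM at day 10 and at 166, 59.5, 129 and 208 CPM at day 17. Again the days did not overlap. Cxcl10 fell by 2.51 ± 0.22 on the log2 scale (edgeR adjusted p = 2.07e-07). In the same comparison 50.9% of the genes tested passed, in either direction, so a change with day was common among macrophage genes. In WT grafts alone the log2 difference was -1.89 ± 0.36 for Cxcl9 and -2.37 ± 0.30 for Cxcl10 (adjusted p = 0.00129 and 6.53e-05, background 25.1% of genes), and in Rnlsmut grafts the differences were -2.64 ± 0.37 and -2.655 ± 0.308 (adjusted p = 4.46e-05 and 8.99e-06, background 42%).

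Different macrophage clusters made up the population on the 2 days, and this moves with the result. Cluster 4, the one led by Cxcl9, was 51.5% ± 13.8 of WT and 67.9% ± 13.8 of Rnlsmut macrophages at day 10, and 7.31% ± 6.43 and 4.89% ± 2.60 at day 17 (SD, n = 4 each). Clusters 2 (led by Apoe, Mrc1 and C1qa), 5 and 10 held most of the macrophages at day 17. Inside cluster 4 the WT level of Cxcl9 was 3518 ± 895 CPM over 4 grafts at day 10 and 1218 and 2702 CPM in the 2 WT grafts with at least 10 such cells at day 17, and in Rnlsmut grafts it was 2292 ± 801 CPM (n = 4) and 1903 ± 940 CPM (n = 3). When the day 17 clusters were weighted as at day 10, the pooled macrophage level of Cxcl9 at day 17 was 1380 CPM in place of 369 CPM, against 1799 CPM at day 10, and that of Cxcl10 was 415 CPM in place of 151 CPM, against 783 CPM. Cxcl9 helped to define the clusters, so these values describe them and were not tested.

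**Figure D2:**
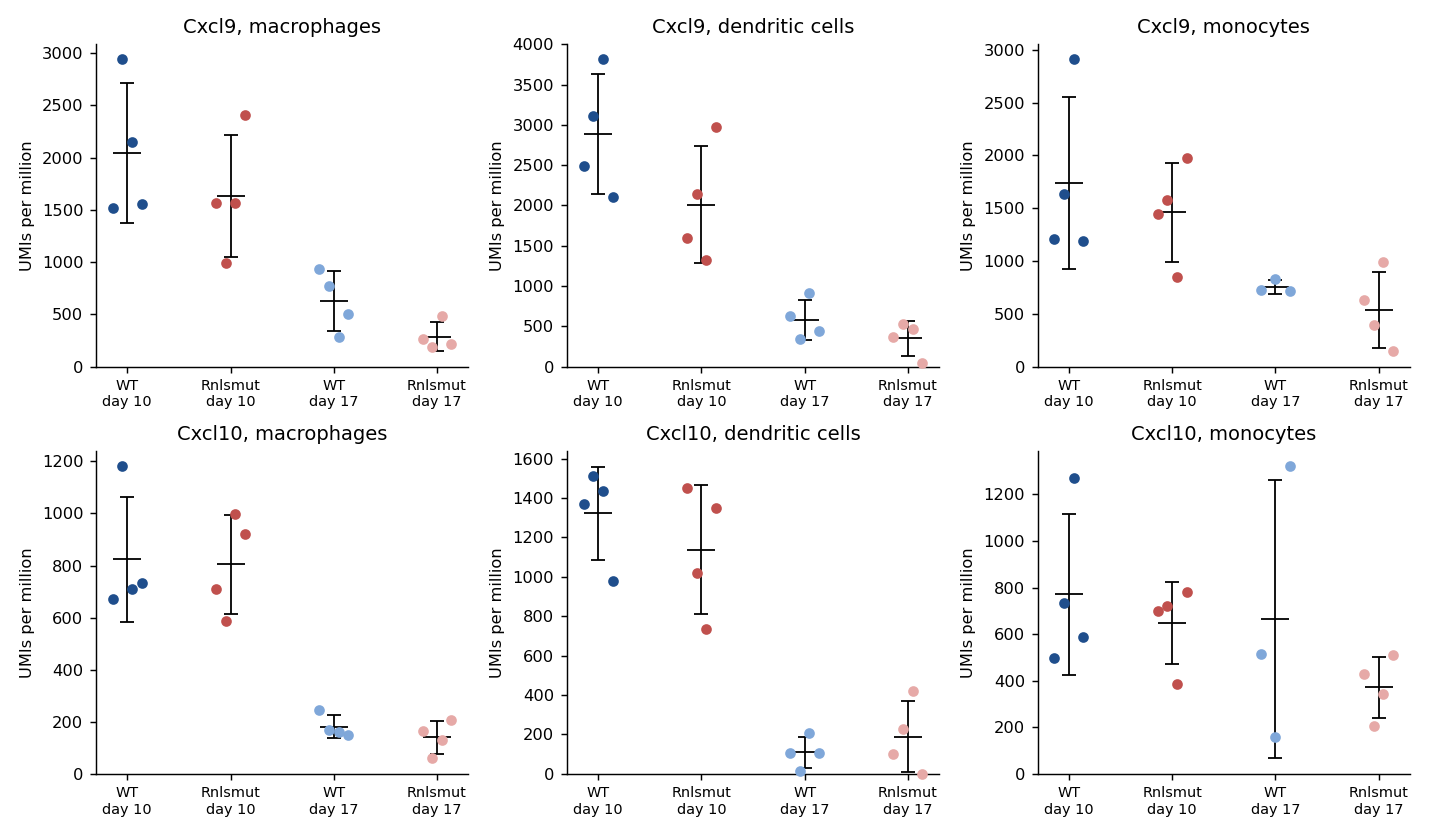
Levels of Cxcl9 and Cxcl10 in macrophages, monocytes and dendritic cells, in CPM on a linear axis that starts at 0, 1 point per graft, bars at the group means with SD. In macrophages and dendritic cells each day 10 point is above each day 17 point of the same genotype, and in monocytes the Cxcl10 points of the days overlap.

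Dendritic cells followed macrophages. Their Cxcl9 stood at 2496, 3116, 3817 and 2110.5 CPM in WT grafts and at 1593, 2147, 1325 and 2970.01 CPM in Rnlsmut grafts at day 10. At day 17 it was 628, 338, 909.8 and 437 CPM in WT grafts and 370.1, 522, 462 and 39.8 CPM in Rnlsmut grafts, with no overlap between the days. It fell by 2.34 ± 0.27 (log2, edgeR adjusted p = 6.64e-06). Dendritic cell Cxcl10 was 1370, 1509.9, 1435 and 979 CPM in WT grafts and 1449.5, 1022, 735 and 1349 CPM in Rnlsmut grafts at day 10, against 108, 12.4, 205 and 108 CPM and 103, 228, 422 and 0 CPM at day 17. It fell by 2.95 ± 0.38 (adjusted p = 2.08e-05), where 27.1% of 5700 genes passed. Cluster 17 was the largest dendritic cell cluster at day 10 (42.8% of WT and 38.8% of Rnlsmut dendritic cells) and cluster 19, led by Plbd1 and Cst3, at day 17 (52.0% and 59.8%).

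Monocytes, which were 15.5% ± 4.22 of WT and 13.8% ± 2.65 of Rnlsmut cells at day 10 and 4.35% ± 4.05 and 2.29% ± 0.49 at day 17, had less Cxcl9 at the later day. Their Cxcl9 was 1205, 1636, 2918 and 1189 CPM in WT and 1442, 1578, 845 and 1978 CPM in Rnlsmut grafts at day 10. At day 17 it was 724, 834 and 715 CPM in the 3 WT grafts with enough monocytes and 632, 389, 986 and 146 CPM in Rnlsmut grafts. The days overlapped only in the Rnlsmut grafts, and Cxcl9 fell by 1.44 ± 0.27 (log2, edgeR adjusted p = 0.00152; 14.4% of 8092 genes passed). Monocyte Cxcl10 ran from 387 to 1269 CPM at day 10 and from 157 to 1323 CPM at day 17, and the difference of -0.82 ± 0.30 did not pass (adjusted p = 0.073). Whether the change with day differed between the chemokines was not tested. The highest of those late values came from 10 monocytes of WT day 17 graft 4, and without that graft the difference was -1.19 with an adjusted p of 0.00836. As a mean over grafts, cluster 1 was the larger monocyte cluster in every group but Rnlsmut day 17. There cluster 14, led by Cybb and Adgre4, held 55.2%. In WT day 17 the cluster 1 share was 57.9% ± 38.0 (SD) and ran from 23.1% to 100% over grafts.

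Macrophages held a larger share of both chemokines at day 17, when they were also a larger share of the cells and the level in CPM was lower. Macrophages were 17.0% ± 6.14 of WT and 15.9% ± 9.01 of Rnlsmut cells at day 10, and 48.9% ± 23.7 and 61.1% ± 3.23 at day 17. Their share of the Cxcl9 UMIs of a graft's CD45+ cells was 43.8% ± 14.8 in WT and 45.9% ± 12.3 in Rnlsmut grafts at day 10. At day 17 it was 80.2% ± 8.66 and 83.1% ± 2.28 (n = 4 each). For Cxcl10 it was 36.0% ± 11.7 and 39.6% ± 6.41 at day 10, and 61.6% ± 16.4 and 63.8% ± 13.2 at day 17. None of the 4 genotype comparisons of these shares passed a two-sided exact permutation test (p from 0.571 to 0.829, all 0.829 after adjustment over the 4), a design in which the smallest possible p is 0.0286. The monocyte share of Cxcl9 was 27.9% and 31.8% at day 10 and 6.03% and 4.21% at day 17.

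**Figure D3:**
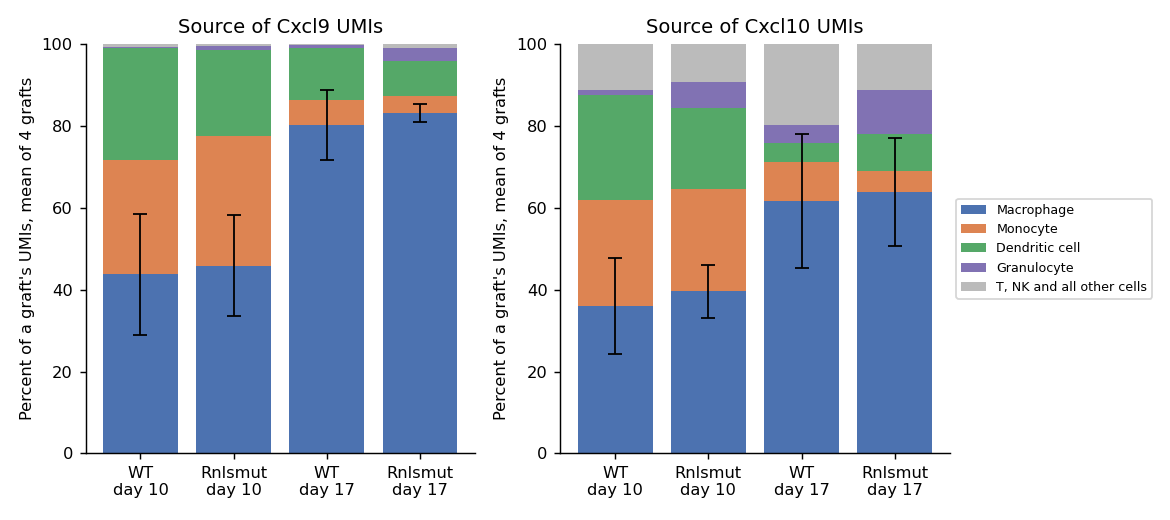
Share of the Cxcl9 and Cxcl10 UMIs of a graft's CD45+ cells that came from each cell type, in percent from 0 to 100. Values are means of 4 grafts for each genotype and day. The macrophage part of Cxcl9 is 43.8% and 45.9% at day 10 and 80.2% and 83.1% at day 17 in WT and Rnlsmut grafts.

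Over all CD45+ cells of a graft, Cxcl9 was 1068 ± 289 CPM in WT and 709 ± 193 CPM in Rnlsmut grafts at day 10, and 389 ± 64.0 and 231 ± 98.2 CPM at day 17. Cxcl10 was 518 ± 84.4 and 401 ± 66.6 CPM at day 10, and 170 ± 60.1 and 149 ± 61.3 CPM at day 17. From day 10 to day 17 the log2 difference was -1.60 ± 0.18 for Cxcl9 and -1.58 ± 0.21 for Cxcl10 (edgeR adjusted p = 3.25e-06 and 1.1e-05), in a comparison that 57.6% of 12560 genes passed. These values join level and cell makeup.

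No member passed a genotype comparison. Of the 34 comparisons of a member between Rnlsmut and WT grafts, 0 passed with edgeR and 0 of the 33 that DESeq2 gave an adjusted p for, while 6 had an unadjusted edgeR p under 0.05. Cxcl9 made up 5 of those 6, in macrophages and over all CD45+ cells. These 5 overlap, since all CD45+ cells include the macrophages and the value over both days joins the single days. Of all genes at day 17, 573 of 9331 had such a p in macrophages and 1033 of 12560 over all CD45+ cells. Macrophage Cxcl9 was 2044 ± 670 CPM in WT and 1635 ± 584 CPM in Rnlsmut grafts at day 10, where the log2 difference was -0.36 ± 0.35 (unadjusted p = 0.32, adjusted 0.884). At day 17 it was 625 ± 289 CPM in WT and 287 ± 136 CPM in Rnlsmut grafts, with a log2 difference of -1.11 ± 0.36 (unadjusted p = 0.00618, adjusted 0.736). The groups overlapped there, since WT graft 3 at 283 CPM lay below Rnlsmut graft 3 at 486 CPM. Over both days the difference was -0.73 ± 0.25 (unadjusted p = 0.00888, adjusted p = 1.0), and over all CD45+ cells it was -0.66 ± 0.18 (unadjusted p = 0.00224, adjusted 0.532). The change of the macrophage difference between days was -0.75 ± 0.50 (adjusted p = 0.656).

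Genotype differences were rare among all genes as well. In macrophages edgeR passed 0.0322% of genes at day 10 (3 genes, and 16 with DESeq2) and 0% at day 17 (573 at an unadjusted p under 0.05, and 6 with DESeq2). Over both days it passed 0% (383 unadjusted, 0 with DESeq2). For the difference of the genotype effect between days it passed 0.0322% (3 genes, and 43 with DESeq2). Monocytes gave 0% at both days (199 and 410 unadjusted, 3 and 0 with DESeq2). Dendritic cells gave 0.0175% at each (1 gene, and 4 and 3 with DESeq2). All CD45+ cells gave 0.0796% at day 10, 0.0159% at day 17 and 0% over both days (783 unadjusted). These were 10, 2 and 0 genes with edgeR, against 86, 27 and 29 with DESeq2. The genotype differences of Cxcl10 in macrophages were -0.07 ± 0.29 at day 10 and -0.36 ± 0.30 at day 17 (adjusted p = 0.991 and 0.913). In dendritic cells Cxcl9 differed by -0.56 ± 0.36 and -0.67 ± 0.39, and Cxcl10 by -0.25 ± 0.47 and 0.84 ± 0.56 (adjusted p from 0.902 to 0.96). In monocytes they were -0.27 ± 0.33 and -0.44 ± 0.40 for Cxcl9, and -0.28 ± 0.36 and -0.70 ± 0.48 for Cxcl10 (adjusted p from 0.96 to 1.0).

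In lymphoid cells Cxcl10 stood at a larger percentage of its macrophage level than Cxcl9 did. At day 10 the Cxcl9 level was 0.788% of the macrophage level in CD8 T cells, 0.729% in CD4 T cells, 1.14% in regulatory T cells and 0.959% in NK cells. The macrophage genes C1qa, C1qb, Apoe, Lyz2 and Csf1r lay in these cells at 0.511% to 1.52% of their macrophage level, the range in which Cxcl9 lay too, and how much of it came from macrophage RNA was not tested. In NK cells at day 10, Cxcl9 stood at 21.1 to 27.0 CPM in the WT grafts (47 UMIs in all) and at 0 to 11.8 CPM in the Rnlsmut grafts (7 UMIs). The UMIs were too few for the filter on low counts, so the difference was not tested. In CD8 T cells Cxcl9 stood at 16.7 to 26.4 CPM in WT and at 6.21 to 11.3 CPM in Rnlsmut grafts. In the cells labelled Stem-Progenitor it stood at 4.32 to 7.09 and 0 to 2.73 CPM, and in CD4 T cells at 14.2 to 20.2 and 4.36 to 15.3 CPM. The genotypes overlapped in CD4 T cells and in regulatory T cells. How many of all genes had groups without overlap was not counted, so no genotype difference is read from these ranges. Cxcl10 at day 10 instead lay at 7.41% of its macrophage level in CD8 T cells, 7.76% in CD4 T cells, 29% in regulatory T cells and 37.8% in NK cells. S100a9 is a leading gene of granulocytes, the type with the highest Cxcl10 level. It was at 40072 CPM in granulocytes, 1.97 CPM in CD4 T cells and 3.83 CPM in NK cells. How much of the lymphoid Cxcl10 came from the RNA of other cells was not tested.

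The balance of the pair was compared next. Counts from the 3′ end are not divided by length, and the share of Cxcl9 among the UMIs of both chemokines is used only to compare cell types. At day 10 it was 69.7% in macrophages, 69.1% in monocytes and 67.7% in dendritic cells. It was 21.9% in granulocytes (exact 95% interval 19.7 to 24.4%), 19.6% in CD8 T cells (16.4 to 23.1%), 17.8% in CD4 T cells (15.2 to 20.5%), 8.30% in regulatory T cells (5.14 to 12.5%) and 5.50% in NK cells (4.16 to 7.12%). The intervals cover counting error only and not the spread over grafts. As a mean over grafts with SD, the share was 21.2% ± 9.02 in granulocytes (n = 7) and 22.0% ± 11.6 in CD8 T cells. It was 18.7% ± 7.42 in CD4 T cells, 12.7% ± 13.2 in regulatory T cells and 4.48% ± 3.15 in NK cells (n = 8 for each lymphoid type). The graft values of granulocytes and of the T cell types overlapped. A few lymphoid cells held much of the signal: 61 of 4876 CD4 T cells, 24 of 3449 CD8 T cells, 57 of 1515 NK cells and 14 of 505 regulatory T cells had at least 5 Cxcl10 UMIs, against 1, 0 and 0 CD4, CD8 and NK cells with as many Cxcl9 UMIs. Those cells held 56.7% of the CD4 T cell, 37.4% of the CD8 T cell and 70.2% of the NK cell Cxcl10 UMIs.

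**Figure D4:**
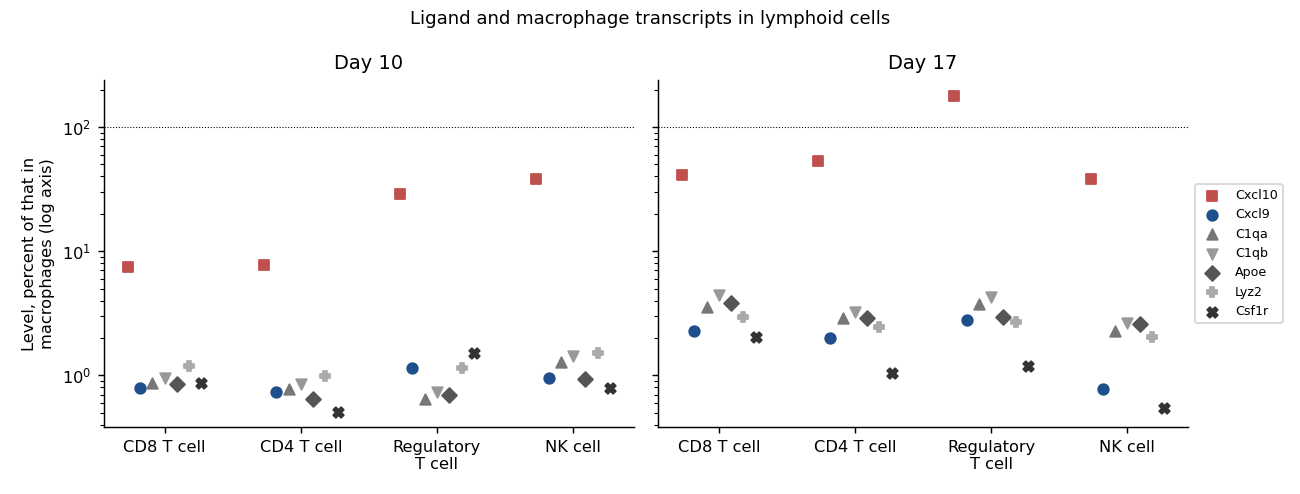
Level of Cxcl9, Cxcl10 and macrophage transcripts in CD8 T, CD4 T, regulatory T and NK cells as a percentage of the level in macrophages of the same day, on a log axis, with 1 panel per day and a dotted line at 100%. At day 10 Cxcl9 lies among the macrophage transcripts near 1%, and Cxcl10 lies above them in each type, at 37.8% in NK cells.

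NK cells are cytotoxic cells, marked here by Eomes (422 CPM, against 51.5 CPM in ILC1), while Ncr1, Klrb1c and Prf1 were found in ILC1 too. In these NK cells Cxcl10 fell with day. It stood at 289, 295, 428 and 347 CPM in WT and at 203, 142, 511 and 160.0 CPM in Rnlsmut grafts at day 10. At day 17 it was 83.5, 13.8, 107 and 159 CPM in WT grafts and 37.3, 67.4, 41.5 and 29.8 CPM in Rnlsmut grafts, so the days did not overlap within a genotype. The fall was 2.38 ± 0.35 on the log2 scale (edgeR adjusted p = 3.38e-05), where 12.9% of 3263 genes passed. This comparison, and those of Cxcl10 in T cells, were added after the values were seen. The genotype differences in NK cells were -0.50 ± 0.33 at day 10 and -0.64 ± 0.69 at day 17 (adjusted p = 0.982 and 0.888; 0.0306% and 0.184% of genes passed), and the 2 WT groups rest on 810 and 158 NK cells, the Rnlsmut groups on 398 and 149.

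In T cells the day difference of Cxcl10 did not pass. Cxcl10 ran from 21.7 to 144 CPM at day 10 and from 12.4 to 165 CPM at day 17 in CD4 T cells, with a log2 difference of -0.18 ± 0.36 (adjusted p = 0.735). In CD8 T cells the ranges were 21.1 to 114 CPM and 0 to 129.8 CPM, with a difference of 0.03 ± 0.36 (adjusted p = 0.965). In regulatory T cells they were 65.1 to 814 CPM and 83.4 to 508 CPM, with a difference of 0.35 ± 0.38 (adjusted p = 0.57). Relative to the lower macrophages of day 17, Cxcl10 then stood at 41.2% of the macrophage level in CD8 T cells, 53.7% in CD4 T cells, 179% in regulatory T cells and 38.5% in NK cells. Whether the change with day differed between NK and T cells was not tested.

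Cxcr3 was a transcript of T cells. CD4 T cells held 42% of its UMIs, CD8 T cells 28%, the cells labelled Stem-Progenitor 12.5%, regulatory T cells 8% and dendritic cells 3.91%. In CPM, regulatory T cells led with 150 ± 49.7 CPM over 14 grafts, and they were above CD4 T cells in 12 of 14 grafts, by 0.97 ± 0.66 (SD) on the log2 scale. CD4 T cells (81.0 ± 26.8 CPM) and CD8 T cells (79.7 ± 18.1 CPM, n = 16 each) were not separated, since each was the higher in 8 of 16 grafts. The cells labelled Stem-Progenitor (50.1 ± 31.8 CPM, n = 12), ILC1 (39.3 ± 21.0 CPM, n = 8), dendritic cells (16.5 ± 13.8 CPM, n = 16) and NK cells (14 ± 8.06 CPM, n = 16) came next, and no neighbouring pair from CD8 T cells down to NK cells was separated beyond the spread over grafts. Macrophages stood at 1.63 ± 0.80 CPM and monocytes at 0.32 ± 1.24 CPM. For comparison, the T cell receptor genes Cd3e and Trac, summed over all cells of a type, stood at 1.67 and 0.84 CPM in macrophages and at 966 and 587 CPM in CD4 T cells. Whether the few Cxcr3 UMIs of macrophages came from those cells was not tested. NK cells, a type in which the receptor is known, held 48 Cxcr3 UMIs in 1515 cells, too few for the filter on low counts, so their Cxcr3 was not tested.

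The receptor was spread over T cell clusters. Cluster 15, the regulatory T cells, stood at 150 CPM, CD4 T cell cluster 8 at 94.3 CPM, CD8 T cell cluster 3 at 93.1 CPM and CD4 T cell cluster 22 at 82.0 CPM. A Cxcr3 UMI was found in 32.3% of the cells of cluster 15 and in 22.6% of those of cluster 8, at their own depths. The genes most like Cxcr3 over the 26 clusters were Grap (Pearson r 0.95), S1pr4 (0.92), Jakmip1 (0.91), Nipal3 (0.91) and Ppp1cc (0.90). Among dendritic cells the receptor lay at 37.5 CPM in cluster 25, led by Siglech, a gene of plasmacytoid dendritic cells, and at 22.2 CPM in cluster 19.

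In CD4 T cells Cxcr3 was higher at day 17. WT grafts stood at 67.5, 72.8, 51.7 and 66.7 CPM at day 10 and at 109, 132, 66.1 and 121 CPM at day 17. Rnlsmut grafts stood at 51.9, 67.5, 49.4 and 62.4 CPM at day 10 and at 80.0, 97.4, 80.1 and 121 CPM at day 17. The days overlapped only through WT day 17 graft 3 at 66.1 CPM. Cxcr3 rose by 0.53 ± 0.13 on the log2 scale (edgeR adjusted p = 0.00299), in a comparison that 36.6% of 7858 genes passed. Within WT grafts the rise was 0.52 ± 0.19 (adjusted p = 0.0478, background 20.7%) and within Rnlsmut grafts 0.54 ± 0.19 (adjusted p = 0.0406, background 22.5%), and both calls were lost when single grafts were left out, as given in the section on processing.

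The CD4 T cells of the 2 days came from different clusters. Cluster 0, led by Ifng, Cd3e and Icos, was 61.7% of WT and 57.6% of Rnlsmut CD4 T cells at day 10 and 11.4% and 6.31% at day 17, when cluster 8 held 71.2% and 68.1%. Within cluster 8, Cxcr3 was 51.6 ± 17.1 CPM (n = 3) in WT and 50.1 ± 12.2 CPM (n = 4) in Rnlsmut grafts at day 10, and 108 ± 35.2 and 105 ± 23.1 CPM (n = 4 each) at day 17. Within cluster 0 it was 68.5 ± 12.6 and 59.3 ± 12.8 CPM (n = 4 each) at day 10 and 121 ± 44.1 and 107 ± 4.49 CPM (n = 2 each) at day 17. The other CD4 T cell clusters did not all move that way. Cluster 7 stood at 51.4 ± 6.45 CPM at day 10 and 51.0 ± 22.1 CPM at day 17 in Rnlsmut grafts (n = 4 each), and at 54.4 ± 16.3 CPM (n = 4) and 103 CPM (1 graft) in WT grafts. Cluster 22 stood at 106 ± 76.3 CPM (n = 4) and 62.9 ± 23.0 CPM (n = 2) in Rnlsmut grafts.

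**Figure D5:**
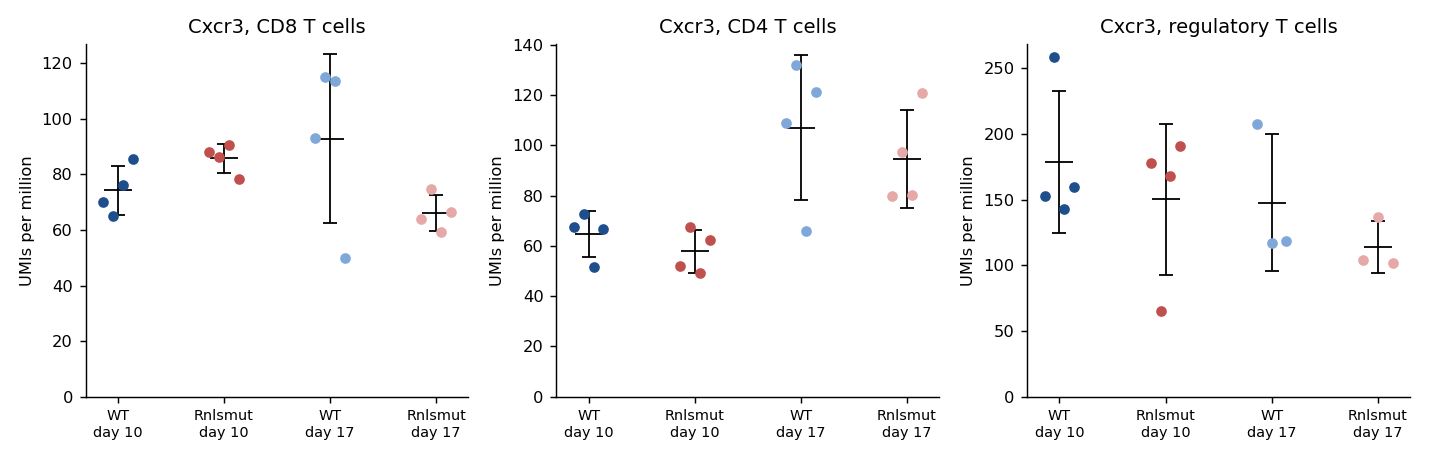
Level of Cxcr3 in CD8 T cells, CD4 T cells and regulatory T cells, in CPM on a linear axis that starts at 0, 1 point per graft, bars at the group means with SD. In CD4 T cells the day 17 points lie above the day 10 points except WT graft 3 at 66.1 CPM, and in CD8 T cells the days overlap.

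In CD8 T cells, of which cluster 3 was the largest in every group, the day difference did not pass. Their Cxcr3 was 70.1, 65.1, 76.3 and 85.5 CPM in WT and 88.0, 86.2, 90.6 and 78.4 CPM in Rnlsmut grafts at day 10, and 92.9, 115, 114 and 49.9 CPM and 64.0, 74.6, 59.2 and 66.4 CPM at day 17. The day difference was -0.11 ± 0.14 (log2, adjusted p = 0.618; 21.4% of 6379 genes passed). The order of the genotypes turned between the days, with a Rnlsmut minus WT difference of 0.18 ± 0.14 at day 10 and -0.49 ± 0.24 at day 17. The change between days was -0.67 ± 0.28 (unadjusted p = 0.0216), and none of these 3 passed after adjustment (adjusted p = 0.797, 0.585 and 0.385; 0.314%, 0.376% and 0.658% of genes passed). WT day 17 graft 4, with 23 CD8 T cells and graft 3, with 18, are the smallest samples in this comparison.

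In regulatory T cells Cxcr3 was 153, 259, 143.0 and 159.7 CPM in WT and 178, 65.1, 168 and 191 CPM in Rnlsmut grafts at day 10. At day 17 it was 208, 117 and 118 CPM in 3 WT grafts and 104, 137 and 102 CPM in 3 Rnlsmut grafts, from 14 to 42 cells each. The day difference was -0.47 ± 0.25 (adjusted p = 0.191; 15.7% of 2331 genes passed), and the genotype differences were -0.14 ± 0.27 at day 10 and -0.30 ± 0.42 at day 17 (adjusted p = 0.931 and 0.878; 0.172% and 0.0429% passed). In CD4 T cells the genotype differences were -0.19 ± 0.17 and -0.17 ± 0.20 (adjusted p = 0.819 and 0.858; 0.229% and 0.433% passed). Over all CD45+ cells Cxcr3 differed between days by -0.36 ± 0.23 (adjusted p = 0.193).

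Dendritic cells, with 107 Cxcr3 UMIs in all, gave a rise that was added after the values were seen. Their Cxcr3 was 13.9, 7.16, 2.20 and 11.6 CPM in WT and 0, 4.73, 13.6 and 6.10 CPM in Rnlsmut grafts at day 10. It was 40.4, 18.6, 22.4 and 6.34 CPM in WT and 23.9, 50.6, 15.8 and 26.5 CPM in Rnlsmut grafts at day 17, so the WT days overlapped through graft 4, in which 1 UMI was counted. The log2 difference was 1.73 ± 0.43 (edgeR adjusted p = 0.00608), while cluster 19 grew from 20.6% and 19.1% to 52.0% and 59.8% of WT and Rnlsmut dendritic cells.

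The share of cells with a Cxcr3 UMI depends on depth, so cells were thinned to 1000 UMIs. At day 10, 7.46% ± 2.13 of WT and 8% ± 0.93 of Rnlsmut CD8 T cells had one (exact permutation test, p = 0.714), and at day 17 8.49% ± 3.27 and 5.67% ± 0.96 (exact p = 0.171). CD4 T cells gave 6% ± 0.27 and 6.62% ± 1.28 at day 10 (exact p = 0.371) and 7.04% ± 3.74 and 8.88% ± 1.98 at day 17 (exact p = 0.514). Over the 4 tests the adjusted values were 0.686 to 0.714. In macrophages the thinned shares were 0 to 0.20%. Without thinning, 33.2% ± 1.38 of WT and 19.2% ± 4.12 of Rnlsmut CD4 T cells had a Cxcr3 UMI at day 17 (exact p = 0.0286, the smallest this design allows), in libraries with a median of 5902 and 3083 UMIs per cell, and the direction turned on thinning.

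The genes known to act upstream of the chemokines and beside them were described from lists. Of 18 interferon gamma response genes tested in macrophages, 15 were lower at day 17, 1 was higher and 2 did not pass, where 50.9% of all genes passed in either direction, and the median log2 difference was -0.76 against 0.02 over all genes. Among them were Psmb8 and Psmb9, subunits of the immunoproteasome (-1.05 and -0.71), the guanylate-binding protein Gbp5 (-1.40), Cd274, the gene of PD-L1 (-1.20), and the Fc receptor Fcgr1 (-0.93). Dendritic cells gave 12 lower, 0 higher and 4 not passing of 16, where 27.1% of all genes passed, with a median of -1.21 against 0.00 over all genes, led by Gbp4 (-2.40) and Igtp (-1.74).

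Of 17 inducers of the chemokines tested in macrophages, 10 were lower, 2 higher and 5 did not pass, with a median of -0.38 against 0.02 over all genes, of which 50.9% passed. Irf7, a factor of the type I interferon response, differed by -1.98, the feedback inhibitor Socs1 by -1.96 and Irf8 by -0.91. Ifngr1, a chain of the interferon gamma receptor, was higher (0.74). In dendritic cells 5 were lower, 1 higher and 11 did not pass of 17, a share near the 27.1% of all genes. Of 6 other CXC chemokines in macrophages, Cxcl16 (-1.14) and Cxcl3 (-1.78) were lower, Cxcl13 (1.98) and Cxcl1 (0.97) were higher, and Cxcl2 (-0.26) was among the 2 that did not pass.

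On the side of the receptor, 10 other trafficking receptors were tested in CD4 T cells, of which 3 were higher, 2 lower and 5 did not pass, where 36.6% of all genes passed. Cd69, which holds lymphocytes in tissue, differed by 1.33, the lymph node homing receptor Ccr7 by 1.23 and Cxcr4 by 1.28, while Cxcr6 (-0.52) and the egress receptor S1pr1 (-0.49) were lower. CD8 T cells gave 2 higher (Cd69 1.19 and Cxcr4 1.15), 2 lower (Cxcr6 -0.59 and S1pr1 -0.85) and 5 not passing of 9, where 21.4% of all genes passed. Of the genes of the CXCR3 system itself, such as signalling partners and further ligands, 2 of 10 were higher in CD4 T cells (Dock2 0.43 and Pf4 2.37) and 3 of 9 in CD8 T cells (Dock2 0.32, Pf4 2.45 and Rgs1 0.66), against 36.6% and 21.4% of all genes. Pf4 is a chemokine of platelets and macrophages, and stood at 368 CPM in macrophages and 7.77 CPM in both T cell types. At day 17 C1qa, C1qb, Apoe, Lyz2 and Csf1r lay in CD4 T cells at 1.05% to 3.24% of their macrophage level. How much of the T cell Pf4 came from macrophage RNA was not tested. In macrophages 4 of 9 were higher, 2 lower and 3 did not pass, near the 50.9% of all genes. Between genotypes 1 list member passed in macrophages, dendritic cells, CD8 T cells or CD4 T cells. It was Pf4 in CD4 T cells at day 17, higher by 2.49 ± 0.41 in Rnlsmut grafts (edgeR adjusted p = 0.00139), where 0.433% of all genes passed.

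Among the CD45+ cells, the transcripts of interferon gamma itself came from lymphoid cells. CD4 T cells held 59.2% of the Ifng UMIs, the cells labelled Stem-Progenitor 19.1% and CD8 T cells 13.7%, and macrophages 0.13%. Relations over grafts were computed within each day, over 8 grafts that come from 2 libraries of 4, too few for a value within a library. At day 10 macrophage Cxcl9 and Cxcl10 gave Pearson r = 0.76 (exact permutation p = 0.0263) and Spearman rho = 0.83 (exact p = 0.0154), neither of which passed over the 6 relations (adjusted p = 0.158 and 0.0923). Without the 2 grafts farthest from the median of Cxcl10, r was 0.87. At day 17 r was 0.49 (exact p = 0.22) and rho 0.43 (exact p = 0.299), and r turned to -0.56 without 2 grafts, so that value rests on those grafts. The Ifng level over all CD45+ cells gave r from -0.19 to 0.56 with macrophage Cxcl9 or Cxcl10 (adjusted p from 0.335 to 0.919).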

How the data were processed

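The deposited files were a matrix of unnormalized UMI counts (genes by cells) and a table of cell annotations, in which the authors gave each cell a library, hashtag, cluster and cell type. Per the labels, cells were captured with 10x Genomics 3′ v3.1 chemistry and hashed, and the submitters' processing notes name Cell Ranger and the mm10 build. Version, cell filters and doublet removal are not given in the sources used here. No doublet caller was run. Instead 1146 cells with the most UMIs (5.11%) or 1609 cells with markers of another lineage (7.17%) were left out as alternatives. Every cell held at least 1001 UMIs.

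Counts were summed per graft and cell type, for grafts with at least 10 such cells, and given as counts per 1000000 UMIs of the same sum (CPM). The replicate was the graft, and which grafts shared a mouse is not in the labels. The paper describes its single-cell panels as 4 paired biological replicates, but which hashtags form a pair is not given. The tests here are therefore unpaired. Their p-values set group differences against the spread between grafts of the same library, and no variation between libraries enters them. Sums were tested with edgeR 4.0.16 in R 4.3.3 (TMM, filterByExpr, glmQLFTest), with 1 fit per population over 4 groups and Benjamini-Hochberg adjustment over all genes tested. A call is an adjusted p under 0.05. The code was tested on simulated data. Monocytes entered with 15 grafts, regulatory T cells with 14, the other tested types with 16.

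Shares were compared with exact permutation tests (SciPy 1.17.1), two-sided. Relations used log2(CPM + 1). Promoters and starts come from RefSeq (3 of 3 members matched) and gene positions from GENCODE vM21. DESeq2 1.42.0 and other settings were tried as alternatives. The members and the gene lists were chosen with earlier results of these data known. Of other genes, up to 5 per list are named, those that passed with the smallest p and otherwise those with the highest level, and for each member the 5 genes most like it over clusters. The third ligand gene, Cxcl11, was not analysed here. A gene of the list of inducers and a promoter motif that was also searched are not reported here.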

Additional observations from a re-analysis of the deposited data

Results flagged for a closer look

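Among 65 sets of 4 grafts of 1 group, 5 held a graft whose gap to its nearest neighbour was over 0.829 of the whole range of the set, which is Dixon's 95% critical value for 4 samples. Chance alone gives about 1 such set in 20. For Cxcl10 in macrophages, WT day 10 graft 2 stood at 1183 CPM and the nearest graft at 733 CPM. For Cxcl10 in NK cells, Rnlsmut day 10 graft 3 stood at 511 CPM and the nearest at 203 CPM. For Cxcr3 in regulatory T cells, WT day 10 graft 2 stood at 259 CPM and the nearest at 159.7 CPM. Macrophages held 64.2% of the Cxcl9 UMIs in Rnlsmut day 10 graft 1, and 41.4% in the nearest graft. After thinning, 1.45% of the 69 CD4 T cells of WT day 17 graft 3 had a Cxcr3 UMI, against 8.71% in the nearest graft.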

How the results depend on the processing

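The falls with day of Cxcl9 and Cxcl10 in macrophages, dendritic cells and all CD45+ cells kept their direction and call under every alternative run. So did the falls of Cxcl9 in monocytes and of Cxcl10 in NK cells, and the rise of Cxcr3 in CD4 T cells. The rise of Cxcr3 in dendritic cells, a comparison added later, kept them under every alternative that gave a value. Leaving out the cells with the most UMIs gave none for it. The macrophage Cxcl9 fall ranged from -2.52 to -2.11 (log2) and the CD4 T cell Cxcr3 rise from 0.41 to 0.66. No genotype comparison of a member reached an adjusted p under 0.05 under any alternative.

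Without a filter on low counts, Cxcl10 in monocytes fell by 0.94 and passed, Cxcr3 in CD4 T cells no longer passed within WT (0.44) or Rnlsmut grafts (0.46), and Cxcl10 in CD8 T cells turned to -0.087. With at least 20 cells per graft, Cxcl10 in monocytes fell by 1.23 and passed, Cxcl10 in regulatory T cells turned to -0.54, and the ILC1 level of Cxcr3 was 63.2 CPM. Without the cells with the most UMIs, the CD4 T cell rises were 0.43 and 0.40 and did not pass, Cxcl10 in CD8 T cells turned to -0.26, and the Rnlsmut minus WT difference in macrophage share at day 17 turned to -2.22 points for Cxcl9 and -1.87 for Cxcl10. Without cells with markers of another lineage, the CD4 T cell rises were 0.51 and 0.51 and did not pass, Cxcr3 over all cells differed between days by -0.59 (adjusted p = 0.0438), and the Cxcl10 share turned to -0.060 points. With DESeq2 the WT rise of Cxcr3 in CD4 T cells was 0.52 (adjusted p = 0.0594). With library sizes in place of TMM, Cxcr3 in CD8 T cells turned to 0.00497 between days. With every cell type weighted equally, the macrophage share differed by -21.5 points for Cxcl9 at day 17, and by -0.17 and -12.2 points for Cxcl10 at day 10 and day 17 (exact permutation p from 0.0857 to 0.971). Unthinned, the share of CD4 T cells with Cxcr3 differed by -1.27 points at day 10 and -14.0 at day 17. The cause was not tested.

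Leaving out 1 graft at a time, genotype differences ranged at day 10 from -0.20 to 0.17 for Cxcl10 in macrophages, -0.46 to 0.091 and -0.44 to 0.063 for Cxcl9 and Cxcl10 in monocytes and -0.22 to 0.040 for Cxcr3 in regulatory T cells, and over all cells from -0.38 to 0.085 for Cxcl10 at day 17 and from -0.72 to 0.035 and -0.28 to 0.098 for Cxcr3 at day 17 and over both days. Day differences ranged from -1.19 to -0.63 for Cxcl10 in monocytes (passing without WT day 17 graft 4), -0.29 to 0.21 in CD8 T cells, -0.44 to 0.090 in CD4 T cells, and -0.57 to -0.19 for Cxcr3 over all cells (adjusted p = 0.0324 without WT day 17 graft 1). The Cxcr3 rise in CD4 T cells ranged from 0.42 to 0.69 within WT grafts, lost without any of 13 single grafts, and from 0.45 to 0.63 within Rnlsmut grafts, lost without any of 8. Macrophage shares ranged from -4.09 to 8.36 points (Cxcl9, day 10), -1.01 to 5.40 (Cxcl9, day 17) and -4.41 to 6.83 (Cxcl10, day 17).

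The hashtag number as a replicate block changed none of 34 genotype calls. Deviations of same-numbered grafts correlated between -0.49 and 0.57, so the numbers are not taken as pairs. The precision of Cxcr3 is limited by cell number, since groups of day 17 hold 50 to 94 regulatory T cells and 167 to 409 CD8 T cells, and Cxcr3 in NK cells was under the filter. No value was obtained for Cxcr3 in dendritic cells without the cells with the most UMIs, for Cxcr3 over all cells at day 17 with DESeq2, or for Cxcr3 in regulatory T cells and Cxcl10 in NK cells at day 17 when each day was fitted alone.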
